A study of Sus scrofa with 4 samples.

Results

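The genes of oxidative phosphorylation were examined in primary cultures of porcine aortic valve interstitial cells, fibroblast-like cells that build and maintain the valve matrix. Members were taken by symbol from a table of 14804 genes, by the name stems NDUF, SDH, UQCR, UQCC, CYCS, COX, SCO, ATP5 and ATPAF, which name nuclear-encoded subunits and assembly factors of complexes I to V and of cytochrome c, 87 genes in all. All 87 had a value by the measure used here. Among them 66 encode subunits, 18 encode assembly factors, 1 is the carrier CYCS, and 2 stand beside the complexes: NDUFA4L2, a paralogue of NDUFA4, and ATP5S, factor B of the ATP synthase. By complex, 37 subunits and 9 assembly factors belong to complex I, 4 and 3 to complex II, 2 and 1 to complex III, 8 and 3 to complex IV, and 15 and 2 to complex V. Further subunits of complexes III and IV and the subunits encoded by mitochondrial DNA were not analysed here.

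The groups compared were a culture given the nitric oxide (NO) donor detaNONOate at 150 µM for 5 days and a control culture kept for 5 days without it. Cultures in which the donor was withdrawn for 2 days after 3 days of treatment, or in which S-nitrosoglutathione at 200 µM was used for 5 days, were not analysed here. Each group is 1 single-cell RNA library of primary cells from aortic valves; the number of animals behind it is not given in the sources used here. The deposited table gives 3 columns per library and no cell by cell values, and does not say how the 3 were made, so they were read as parts of 1 library. Differences have no replicate check, no test of the treatment was made, and the 95% intervals beside ratios are exact and cover counting error only.

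The libraries held 21289316 counts for the NO donor and 21807024 for the control, with 6486628 to 8067661 per column. A normalized count is the summed count of a library over the sum of its 3 size factors, and a gene is called higher or lower at a log2 ratio (NO donor over control) of at least 0.5 in size. Scaling each library to its total count in place of the authors' size factors adds 0.60 to every log2 ratio, so the median of all 13943 measured genes is 0.00 by the first and 0.60 by the second. The order of genes does not depend on this choice, and the percentile of a gene among all measured genes is given where it helps. By the authors' size factors 29.5% of all measured genes were higher and 32% lower. Of the 11 markers of interstitial cells or fibroblasts 10 were lower and none higher, with normalized counts that summed to 42369.8 in NO donor cells, against 208677 in control cells; VIM, vimentin, stood at 26546 in NO donor cells, against 75712 in control cells. Of 9 endothelial markers 3 were measured, and all 3 were lower; PECAM1 stood at 209.7 in NO donor cells, against 326 in control cells and ERG at 72.3 in NO donor cells, against 375 in control cells. Of 10 leukocyte markers 5 were measured, with sums of 171 in NO donor cells and 171 in control cells, nearly all of it CD14, whose log2 ratio was −0.08. Of these 5, at low counts, 3 were higher and 1 lower. AIF1 had 35 counts under NO donor and 1 under control, a log2 ratio of 4.57 (1.995 to 9.91). CD68 had 24 counts under NO donor and 4 under control, 2.02 (0.48 to 4.01), and ITGB2 10 under NO donor and 2 under control, 1.76 (−0.47 to 4.99). TYROBP had 4 counts under NO donor and 19 under control, −2.81 (−4.82 to −1.22). Of 7 cardiomyocyte markers 2 were measured, with sums of 10.1 in NO donor cells and 28.1 in control cells, and epithelial markers were not analysed here. The part of such differences in the values below was not tested. In pooled counts, fewer cells of a type and less RNA per cell cannot be told apart.

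Oxidative phosphorylation passes electrons from NADH and succinate along complexes I to IV of the inner mitochondrial membrane to oxygen, and complex V, the ATP synthase, uses the resulting proton gradient to make ATP. Complexes I to IV and the carrier cytochrome c are haem, copper, flavin or iron-sulphur proteins, and NO is known to bind the haem-copper centre of complex IV in competition with oxygen. Assembly factors insert cofactors and join subunits, and are not part of the finished complex. Several nuclear genes of the pathway are known targets of the transcription factors NRF1, the ETS family member GABP and YY1, whose sites lie close to the transcription start.

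The promoters of 4 members are shown because they carry such motifs. They are the lowest 2 and the highest 2 by log2 ratio among members whose window holds an NRF1-type or ETS motif. The window runs from 250 bases before to 50 bases after the annotated start. Members outside this selection, such as NDUFB1 and CYCS, differed more than NDUFB7 and SDHAF2. The sequences were read from the RefSeq assembly Sscrofa11.1, 5′ to 3′ on the gene's strand, with matches on either strand to an NRF1-type motif (the capitals of NDUFA3), the ETS motif CCGGAAG or the YY1 motif AAGATGGCG in capitals. NDUFA3 lies at chr6:56021269-56021568 (minus strand), NDUFB7 at chr2:64718642-64718941 (plus), SDHAF2 at chr2:10088136-10088435 (minus) and COX10 at chr12:58011581-58011880 (plus).
NDUFA3: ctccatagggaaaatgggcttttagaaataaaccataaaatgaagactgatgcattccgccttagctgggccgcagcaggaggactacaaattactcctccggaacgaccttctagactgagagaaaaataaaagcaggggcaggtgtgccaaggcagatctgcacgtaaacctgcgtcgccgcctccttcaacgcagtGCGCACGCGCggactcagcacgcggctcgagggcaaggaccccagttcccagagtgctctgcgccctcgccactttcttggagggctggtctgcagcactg
NDUFB7: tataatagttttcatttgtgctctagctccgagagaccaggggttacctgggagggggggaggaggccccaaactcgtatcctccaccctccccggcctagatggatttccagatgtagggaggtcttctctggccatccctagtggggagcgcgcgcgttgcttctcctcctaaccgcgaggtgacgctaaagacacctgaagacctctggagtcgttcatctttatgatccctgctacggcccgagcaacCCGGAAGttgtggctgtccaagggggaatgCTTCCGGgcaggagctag
SDHAF2: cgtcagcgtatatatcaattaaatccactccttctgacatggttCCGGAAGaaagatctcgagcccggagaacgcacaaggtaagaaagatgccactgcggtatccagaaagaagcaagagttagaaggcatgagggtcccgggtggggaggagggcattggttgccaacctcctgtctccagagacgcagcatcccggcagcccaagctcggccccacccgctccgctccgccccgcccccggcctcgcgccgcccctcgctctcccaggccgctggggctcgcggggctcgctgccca
COX10: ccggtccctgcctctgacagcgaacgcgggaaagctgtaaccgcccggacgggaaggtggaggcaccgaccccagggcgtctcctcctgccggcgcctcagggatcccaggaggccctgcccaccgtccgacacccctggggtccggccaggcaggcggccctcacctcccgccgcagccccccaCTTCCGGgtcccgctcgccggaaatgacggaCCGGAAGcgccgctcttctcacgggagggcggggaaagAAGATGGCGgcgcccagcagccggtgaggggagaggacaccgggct
In NDUFA3 the NRF1-type match begins 51 bases before the annotated start. In NDUFB7 the ETS matches begin at transcript bases 3 and 33. COX10 holds ETS matches 65 and 34 bases before its start and the YY1 motif from transcript base 5, while the single ETS match of SDHAF2 lies 206 bases before its start. A window was available for 86 members, CYCS being left out because its annotated start is incomplete. The NRF1-type motif, the NRF1 palindrome with 1 middle base left free, was found in 17 of the 86 (19.8%), against 9.17% of 12556 measured genes. ETS motifs were found in 23 members (26.7%), against 15.5% of measured genes, and the YY1 motif in 7 (8.14%), against 2.13%. Among members called higher, 4 of 16 held the NRF1-type motif and 4 the ETS motif; among those called lower, 2 of 21 and 8 did. These matches are a description of letters in a window, not of binding.

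As a whole the 87 genes were centred on the typical gene. In the NO donor library 17 of them were higher and 21 lower, 19.5% and 24.1%, where 29.5% of all measured genes were higher and 32% lower. Their median log2 ratio was 0.02, against 0.00 for all measured genes, and their middle ratios were closer together, with an interquartile range of 0.85 against 1.39. Scaled to total counts, 46 were higher and 6 lower, where 53.9% and 18.6% of all measured genes were. Summed over members, normalized counts came to 119043 in NO donor cells and 132700 in control cells, whereas their share of all counts ran from 2.05% to 2.06% in the NO donor columns and from 1.51% to 1.52% in the control columns. Whether the pathway as a whole is read as slightly lower or as higher thus depended on the scaling; the order of its members did not. The 6 genes that were lower by both scalings were NDUFB1, NDUFA3, NDUFS8, NDUFV3, COX7A1 and ATP5O, all subunits, and the 17 called higher were so by both.

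Subunits and assembly factors stood apart. Among 18 assembly factors 10 were higher and 1 lower, and their median log2 ratio was 0.52. Among 66 subunits 5 were higher and 19 lower, and their median was −0.18; under total count scaling the medians were 1.11 for assembly factors and 0.42 for subunits. Against the 29.5% of measured genes called higher, these counts are 55.6% of assembly factors and 7.58% of subunits; against the 32% called lower, they are 5.56% and 28.8%. The difference was not tested, since each group is 1 library. Assembly factors together took 0.0988% to 0.101% of the counts in the NO donor columns, against 0.0429% to 0.0440% in the control columns, and subunits took 1.85% to 1.87%, against 1.44% to 1.45%. Subunit genes were by far the more abundant, with a median of 1502 for the mean normalized count against 1169 over all 87 members. Among assembly factors COX17 stood at 1550, and no other had a mean above the 443 of ATP5SL. Among the 1049 measured genes with a mean of 1000 or more the median log2 ratio was −0.31, against 0.03 for those at 100 or more. Level thus moved with the split, and its part was not tested.

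**Figure D1:**
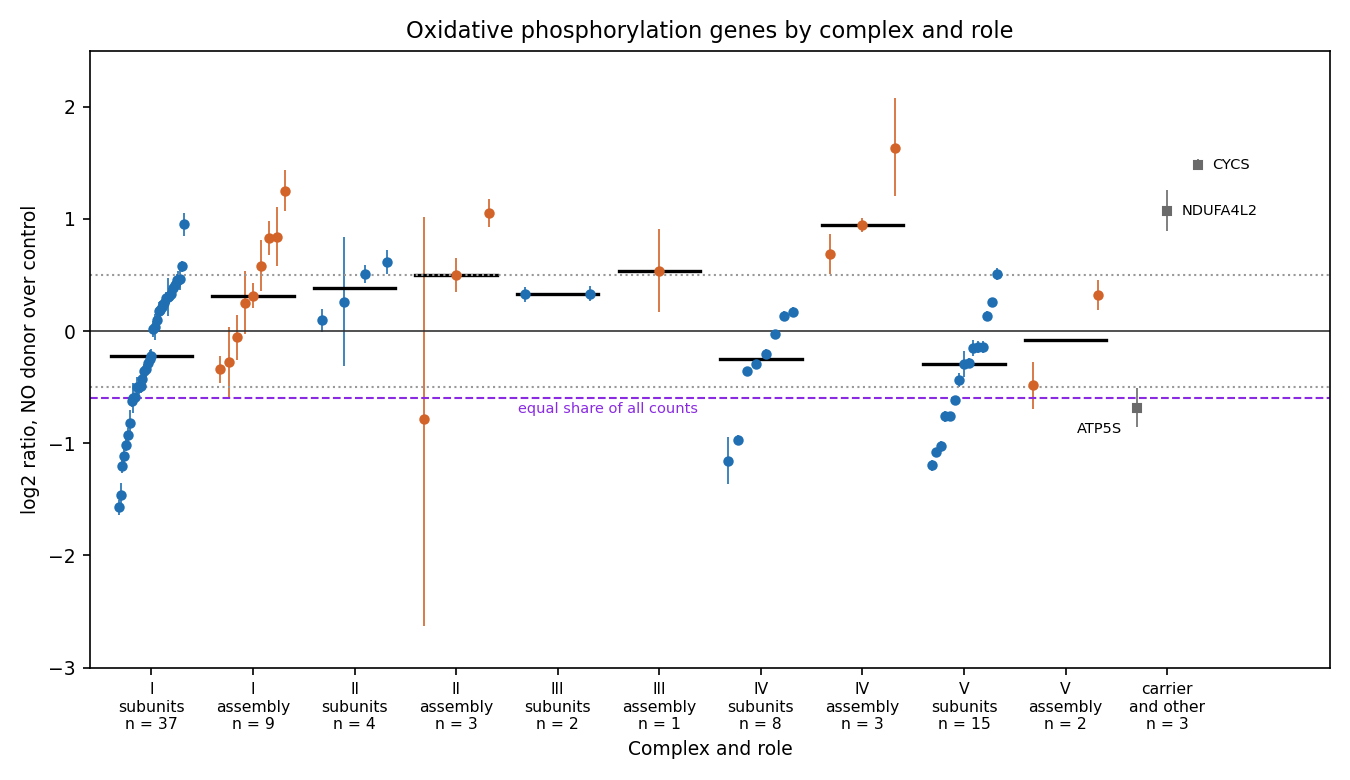
Log2 ratio (NO donor over control, vertical axis) of each of the 87 genes, by complex and role along the horizontal axis, with exact 95% counting intervals; black bars are medians, dotted lines the 0.5 size rule, and the dashed line the ratio that equals no difference in share of all counts. Assembly factors of complexes I and IV lie mostly above 0, whereas subunits of complexes I, IV and V spread from −1.57 to 0.95.

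**Figure D2:**
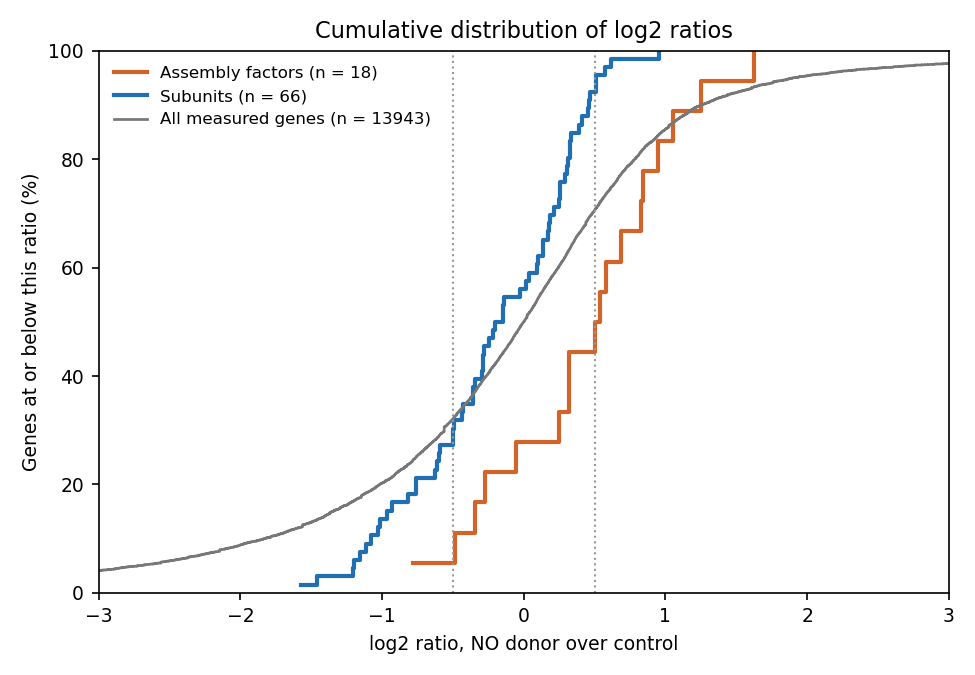
Percentage of genes (vertical axis) at or below each log2 ratio (NO donor over control, horizontal axis) for 18 assembly factors, 66 subunits and 13943 measured genes, with dotted lines at the 0.5 size rule. Some measured genes lie beyond the axis at either end. The assembly factor curve lies to the right over most of its length, with a median of 0.52, and the subunit curve lies above the curve of all genes to the right of 0, where 5 subunits were higher.

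Complex I, the NADH dehydrogenase, has core subunits that carry the flavin and iron-sulphur clusters and many accessory subunits around them. The 7 nuclear-encoded core subunits had a median log2 ratio of 0.10, with 2 lower (28.6%, against 32% of all measured genes) and none higher. NDUFS8, which holds iron-sulphur clusters in the arm that leads to the quinone (chromosome 2, 4863295 to 4867392), had normalized counts of 963, 1022 and 990.4 in the NO donor columns, against 2209, 2333 and 2316 in the control columns. The columns of the libraries did not overlap, and the gene was 2.31-fold lower (2.21 to 2.41). NDUFV1, the subunit that binds NADH and the flavin, had 264, 243 and 228 in the NO donor columns, against 402, 369 and 346 in the control columns. Its log2 ratio was −0.60 (−0.73 to −0.46), and under total count scaling it became −0.0017. NDUFS7 had a log2 ratio of 0.10 and NDUFS3 of 0.19, both within the size rule. NDUFV2, the partner of NDUFV1 in the NADH-oxidising module, had 0.25 and NDUFS1, the largest core subunit, 0.30. The core subunits of the complex thus ran from NDUFS8 at −1.21 to NDUFS1 at 0.30.

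Accessory subunits of complex I spread more widely. Among 30 of them 9 were lower, a share of 30% that is close to the 32% of all measured genes, and 2 were higher, 6.67% against 29.5%; the median was −0.25. NDUFB1, a small subunit of the membrane arm (chromosome 7, 113652772 to 113659937), was the lowest of all 87 genes, with 645, 695 and 712 in the NO donor columns, against 2076, 2049 and 1989 in the control columns. It was 2.98-fold lower (2.84 to 3.12) and lay at percentile 12.1 of all measured genes. The gene overlaps CPSF2 on the other strand, and the strand setting of the counting is not given in the sources used here. NDUFA3, also a membrane arm subunit, had 271, 274 and 286 in the NO donor columns, against 751, 752 and 783 in the control columns, 2.75-fold lower (2.55 to 2.97). NDUFV3, an accessory subunit of the NADH-oxidising module, had a log2 ratio of −1.11 (−1.20 to −1.03) and NDUFS5, which faces the intermembrane space, −1.01 (−1.07 to −0.96). Among the other lower ones NDUFB7 had −0.93, NDUFA10 −0.82, NDUFB5 −0.62, NDUFB9 −0.59 and NDUFA1 −0.50. Under total count scaling the last 2 became 0.0042 and 0.094.

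Against this, NDUFA9, an accessory subunit that binds a nucleotide at the junction of the arms (chromosome 5, 65760078 to 65788703), had normalized counts of 735, 815 and 806 in the NO donor columns, against 405, 418 and 396 in the control columns. No column of the NO donor library came near the control, and the gene was 1.93-fold higher (1.80 to 2.08). NDUFA13, also known as GRIM-19, was the other higher accessory subunit, with 2869, 2856 and 2753 in the NO donor columns, against 1855, 1943 and 1884 in the control columns and a log2 ratio of 0.58 (0.53 to 0.63). Below the rule but above 0 stood NDUFA6 at 0.47, NDUFB11 at 0.46, the acyl carrier protein NDUFAB1 at 0.45, NDUFC2 at 0.41 and NDUFB2 at 0.39. On the other side, within the rule but below 0, stood NDUFB10 at −0.498, NDUFA2 at −0.489, NDUFB6 at −0.43, NDUFS4 at −0.35 and NDUFA11 at −0.34. The 13 measured NDUFA and NDUFAB1 genes of complex I had a median of 0.02 and the 11 NDUFB genes one of −0.43, with 4 NDUFB genes lower (36.4%, near the 32% of all measured genes) and none higher; 3 of the 13 (23.1%) were lower. The smallest difference in the complex was that of NDUFA8, a twin cysteine subunit of the intermembrane space, with 1115, 1073 and 1062 in the NO donor columns, against 1055, 1087 and 1073 in the control columns; its columns overlapped.

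Of the 9 assembly factors of complex I, 4 were higher (44.4%, against 29.5% of all measured genes) and none lower, with a median of 0.32. NDUFAF4 (chromosome 1, 64038277 to 64044824), which acts with NDUFAF3 in an early assembly intermediate, had 287, 314 and 314 in the NO donor columns, against 139.9, 119 and 126 in the control columns and was 2.38-fold higher (2.10 to 2.71). Its partner NDUFAF3 had 351, 346 and 360.0 in the NO donor columns, against 424, 473 and 442 in the control columns, a log2 ratio of −0.34 (−0.46 to −0.22), so these partners lay on opposite sides of 0, although NDUFAF3 became 0.25 under total count scaling. NDUFAF7, a methyltransferase, had a log2 ratio of 0.84 (0.58 to 1.11) and NDUFAF8 one of 0.83 (0.68 to 0.98). NDUFAF8 is the partner of NDUFAF5, a hydroxylase of NDUFS7, which had 0.25 (−0.03 to 0.54) with overlapping columns. NDUFAF6 had 0.58 (0.36 to 0.81), and without the third control column it was 0.50, just under the rule. NDUFAF2 had −0.06, NDUFAF1 −0.27 and ATP5SL, which despite its symbol is the complex I assembly factor now named DMAC2, 0.32; its annotated span holds several other genes on the other strand.

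Complex II, succinate dehydrogenase, is the only complex shared with the citrate cycle, and all its subunits are nuclear. All 4 had log2 ratios above 0, as did 6974 of 13943 measured genes, with a median of 0.38. The rule was passed by 2, 50% against 29.5% of all measured genes. SDHA, the flavoprotein that oxidises succinate (chromosome 16, 79838442 to 79862956), had 629, 610.1 and 664 in the NO donor columns, against 410.3, 409 and 421 in the control columns and was 1.53-fold higher (1.42 to 1.65). SDHC, a membrane anchor with the haem, had 1044, 1077 and 1087 in the NO donor columns, against 782, 730.1 and 749.8 in the control columns and a log2 ratio of 0.51 (0.43 to 0.59), which was 0.49 when either the third NO donor column or the second control column was left out. SDHB, the iron-sulphur subunit, had 514, 551 and 522 in the NO donor columns, against 426, 552 and 500.2 in the control columns; its columns overlapped and its interval, 0.10 (−0.01 to 0.20), held 0. SDHD, the other anchor, had 74 counts under NO donor and 42 under control, too few to place its log2 ratio of 0.26 (−0.31 to 0.84). Among the assembly factors SDHAF2, which attaches the flavin to SDHA, had 533, 609 and 586 in the NO donor columns, against 288, 278 and 269 in the control columns and was 2.08-fold higher (1.90 to 2.26); it overlaps CPSF7 on the other strand. SDHAF1, which helps load the iron-sulphur clusters of SDHB, had a log2 ratio of 0.50 (0.35 to 0.65), on the edge of the rule, and without the third control column it was 0.44. SDHAF3, with 6 counts under NO donor and 7 under control, was too low to compare, and it is the 1 assembly factor in the count of lower genes.

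Complex III, the cytochrome bc1 complex, was represented by the small subunits UQCRB and UQCR10 and by UQCC, its assembly factor. UQCRB, which borders the quinone site, had 1283, 1336 and 1293 in the NO donor columns, against 1014, 1086 and 1004 in the control columns, and UQCR10 had 1442, 1462 and 1413 in the NO donor columns, against 1131, 1118 and 1183 in the control columns. In both the columns of the libraries were apart, with log2 ratios of 0.33 and 0.33, below the size rule. UQCC, needed for the synthesis and stability of cytochrome b, had a log2 ratio of 0.54 (0.17 to 0.91) on 197 counts under NO donor and 92 under control, and it was under the rule in 3 of the 6 repeats that left out a column, with 0.46 as the lowest. CYCS, cytochrome c, carries electrons from complex III to complex IV and triggers apoptosis when released from mitochondria. It (chromosome 18, 47169921 to 47172212) had 4849, 5188 and 5216 in the NO donor columns, against 1844, 1772 and 1837 in the control columns and was 2.80-fold higher (2.71 to 2.89), at percentile 92.2 of all measured genes. The NO donor columns of CYCS varied more than those of any other member, 10.1 times as much as Poisson counting, so its interval is too narrow; over all members the median of this factor was 0.918 for NO donor columns and 0.908 for control columns. Mammalian genomes hold many processed copies of CYCS, and reads shared among copies were not resolved here.

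**Figure D3:**
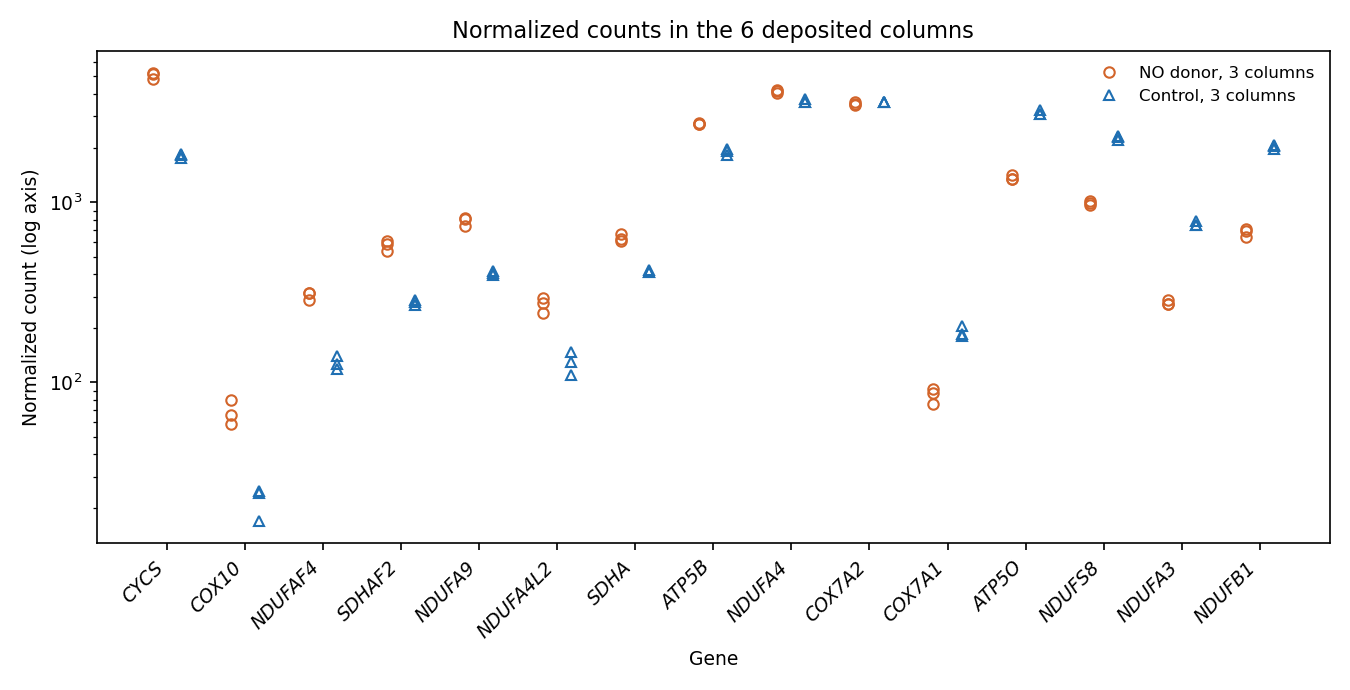
Normalized counts (vertical, log axis) of 15 members in the 3 NO donor columns (circles) and the 3 control columns (triangles). The columns of the libraries are apart in all genes drawn except COX7A2, and CYCS stands at 4849 to 5216 in the NO donor columns, against 1772 to 1844 in the control columns.

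Complex IV, cytochrome c oxidase, had all 3 assembly factors among the members higher, against 29.5% of all measured genes, and none of its subunits higher. Its assembly factors outside the members went both ways, with CMC1 at −0.65 and TACO1 at 0.64. COX10, which makes the haem O precursor of the oxidase haem (chromosome 12, 58011831 to 58110575), had 58.6, 80.3 and 65.8 in the NO donor columns, against 24.2, 17.0 and 24.8 in the control columns. It was 3.09-fold higher (2.30 to 4.22), the largest ratio of the 87 genes, on 251 counts under NO donor and 55 under control. COX17, the copper chaperone of the intermembrane space that supplies the oxidase, had 2048, 2020.2 and 2062 in the NO donor columns, against 1033, 1045 and 1092 in the control columns and was 1.93-fold higher (1.85 to 2.02). SCO2, which receives copper from COX17 for the COX2 subunit, had 230.5, 253 and 232 in the NO donor columns, against 147, 132 and 164 in the control columns and a log2 ratio of 0.68 (0.51 to 0.86). Of the 8 nuclear subunits 2 were lower, 25% against 32% of all measured genes, and none higher; their median was −0.25. COX7C had 2203, 2213 and 2247 in the NO donor columns, against 4240.2, 4439 and 4339.7 in the control columns and was 1.96-fold lower (1.90 to 2.01). COX5B had a log2 ratio of −0.36, COX6C −0.29, COX6B −0.20 and COX6A1, the non-muscle form of its subunit, 0.14.

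Isoforms and paralogues of complex IV subunits differed within their pairs. COX7A1, the heart and muscle form of subunit VIIa (chromosome 6, 45519225 to 45520721), had 92.0, 87.6 and 75.6 in the NO donor columns, against 206, 185 and 180.4 in the control columns and was 2.23-fold lower (1.92 to 2.58). COX7A2, the form of other tissues, had 3600.3, 3490.3 and 3508 in the NO donor columns, against 3597, 3598 and 3599.7 in the control columns, columns that overlapped, and a log2 ratio of −0.03 (−0.07 to 0.01). NDUFA4, once assigned to complex I and now placed in complex IV, had 4047, 4153 and 4192 in the NO donor columns, against 3616, 3767 and 3608 in the control columns and a log2 ratio of 0.17 (0.14 to 0.21). NDUFA4L2 (chromosome 5, 22540482 to 22548418), a paralogue known as a target of hypoxia-inducible factor that lowers complex I activity in hypoxic cells, had 242, 276 and 293 in the NO donor columns, against 130.5, 147 and 110.2 in the control columns and was 2.11-fold higher (1.85 to 2.40).

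Complex V, the ATP synthase, was lower in 6 of its 15 subunits (40%, against 32% of all measured genes). It was higher in 1 (6.67%, against 29.5%). Every subunit but ATP5D, at 395, had a mean normalized count of 1000 or more. At that level 41.5% of measured genes passed the rule downward and 18.8% upward, so the 40% was no excess. The subunit median was −0.29 by the authors' size factors and 0.30 by total counts, against −0.31 and 0.28 for measured genes at that level. The parts of the complex differed. All 4 measured subunits of the peripheral stalk, which holds the head against rotation, lay below 0, with a median of −0.92. The rule was passed by 3 (75%, against 32% of all measured genes and 41.5% of those with a mean of 1000 or more). Under total count scaling 3 of the 4 were still below 0, and ATP5F1 was at 0.45. ATP5O, the oligomycin sensitivity protein that joins stalk and head (chromosome 13, 197509331 to 197519530), had 1419, 1341 and 1352 in the NO donor columns, against 3090.0, 3252 and 3092 in the control columns and was 2.29-fold lower (2.21 to 2.38). ATP5J, coupling factor 6, had 2467, 2466 and 2488 in the NO donor columns, against 5343, 5306 and 5039 in the control columns and was 2.11-fold lower (2.05 to 2.17); it overlaps GABPA on the other strand. ATP5H, subunit d, had a log2 ratio of −0.76, and ATP5F1, subunit b, had −0.14. The 3 genes of the c ring, the rotor in the membrane, encode the same mature protein and were all below 0, although ATP5G1 was at 0.31 under total count scaling. ATP5G2 had 1632, 1503 and 1608 in the NO donor columns, against 3122, 3359 and 3190.2 in the control columns, a log2 ratio of −1.03 (−1.08 to −0.98). ATP5G3 had −0.61 (−0.65 to −0.58) and ATP5G1 −0.28 (−0.33 to −0.24), and the 3 intervals did not overlap.

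In the head and central stalk the catalytic subunit ATP5B (chromosome 5, 21984750 to 21992393) was the 1 higher subunit of complex V, with 2706, 2749.5 and 2711 in the NO donor columns, against 1823, 1926 and 1972 in the control columns and a log2 ratio of 0.51 (0.46 to 0.56), which was 0.48 without the first control column. ATP5A1, the other subunit of the catalytic ring, had 1935, 1979 and 1979 in the NO donor columns, against 2132, 2221 and 2151 in the control columns and −0.14 (−0.19 to −0.09). These subunits alternate in equal number in the enzyme. ATP5E, of the central stalk, had 3675, 3564 and 3702 in the NO donor columns, against 6197, 6169 and 6133 in the control columns and was 1.69-fold lower (1.65 to 1.73); ATP5C1 had a log2 ratio of −0.44 and ATP5D −0.29. The small membrane subunits near the dimer interface were within the size rule, with ATP5L at 0.26, ATP5J2 at 0.14 and ATP5I at −0.15; under total count scaling their median was 0.73. Of the assembly factors of the head, ATPAF2 had 0.32 and ATPAF1 −0.48, and neither passed the rule. ATP5S, outside both classes, had a log2 ratio of −0.68 (−0.86 to −0.51).

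**Figure D4:**
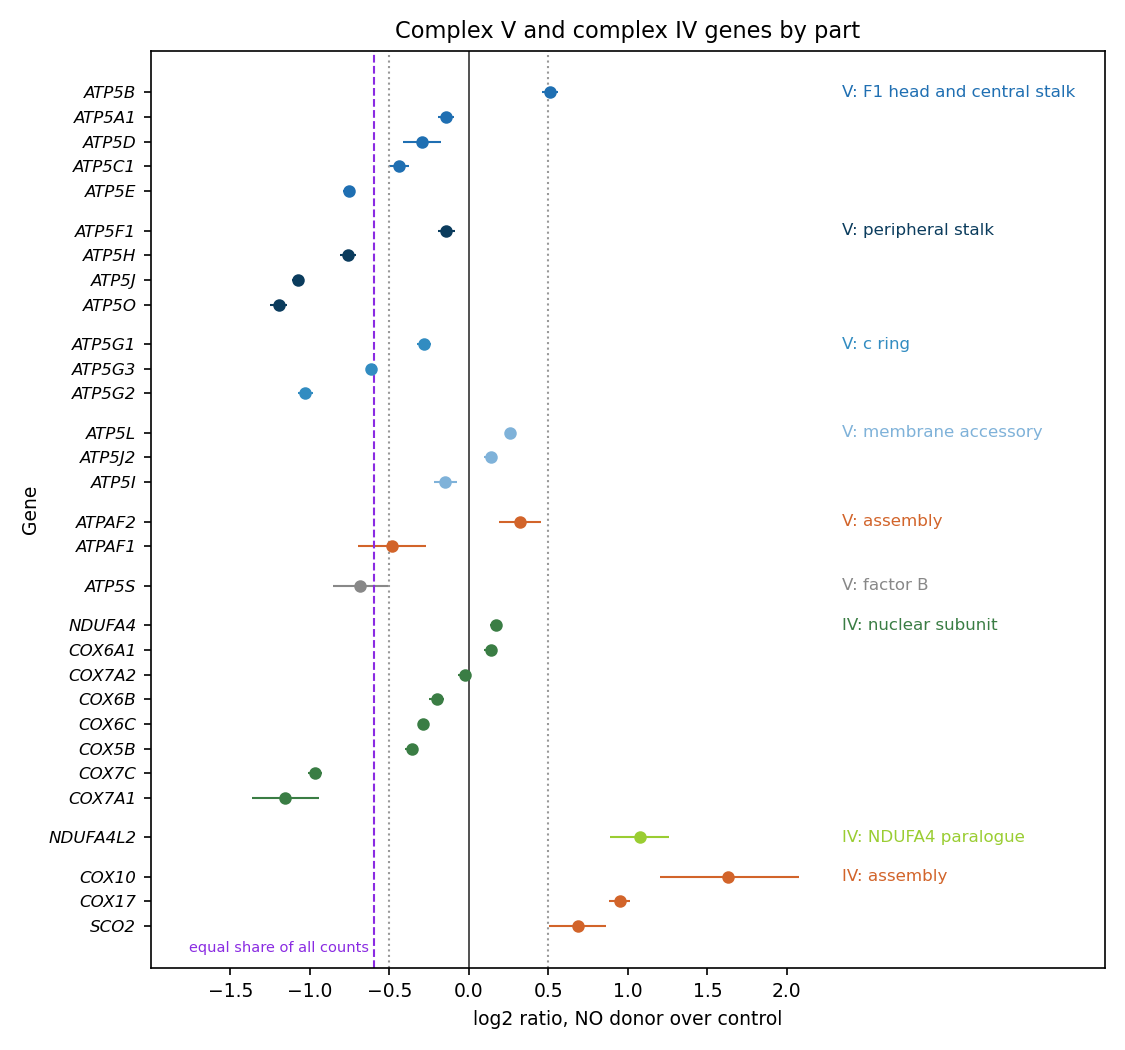
Log2 ratio (NO donor over control, horizontal axis) with exact 95% counting intervals for the genes of complex V and complex IV (vertical axis), grouped by part of the complex; dotted lines mark the 0.5 size rule and the dashed line equal share of all counts. Peripheral stalk and c ring genes lie below 0, with ATP5F1 and ATP5G1 above the line of equal share, and the 3 assembly factors of complex IV drawn here lie above 0.5.

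Columns of the libraries were apart in more genes than passed the size rule. In 38 of 87 members all 3 NO donor columns lay above all 3 control columns and in 39 below, where 36.7% and 36.3% of measured genes did so. In 10 they overlapped. These shares moved with level. Of 6694 measured genes with a mean of 100 or more, 2971 lay above and 2793 below. Of the 1049 with a mean of 1000 or more, 360 lay above and 633 below. By the authors' deposited table, adjusted p-values from DESeq2 were below 0.05 with a higher value in the NO donor for 34 members and with a lower one for 37, where 24.7% and 26.4% of measured genes did. Such a p was found with a higher value for 2425 of the 6694 genes and with a lower one for 2364. Of the 1049 genes these were 338 and 599. That p rests on columns of 1 library per group and is no test of the treatment. Across the 87 members the log2 ratio followed annotated transcript length weakly, with a Spearman rho of 0.25, and mean level with −0.25; over the 66 subunits alone these were 0.09 and −0.12. The members called higher had a median transcript length of 1835 bases, against 726 for those called lower and 850 for all 87. These correlations are across genes of the same libraries, not over replicates.

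Neighbouring gene groups of the pathway were set beside the members. Of 22 measured assembly factors outside the naming rule, 7 were higher and 4 lower (median 0.19), and total count scaling made these 14 and 1. The 31.8% higher is near the 29.5% of all measured genes, and 63.6% stands against 53.9% by total counts, so these factors did not show the 55.6% higher of the 18 members; 18.2% were lower, against 32%. Higher were ACAD9, a complex I assembly factor, with 130.3, 106 and 125 in the NO donor columns, against 51.1, 54.7 and 52.9 in the control columns and a log2 ratio of 1.19, BCS1L, which inserts the Rieske protein of complex III, with 1.05, TTC19 of complex III with 1.01 and TMEM126B of complex I with 1.01. Also higher were TIMMDC1 with 0.79, TACO1 with 0.64 and HIGD1A with 0.62. Lower were SLIRP, an RNA-binding protein that stabilises mitochondrial transcripts, with 334, 339 and 332 in the NO donor columns, against 782, 838 and 803 in the control columns and −1.27, and TMEM70, which acts on the ATP synthase, with −0.82. CMC1 of complex IV was lower too, with −0.65 (−0.75 to −0.55), as was PET117 with −0.56 on 8 counts in each library. SLIRP and its partner LRPPRC lay on opposite sides of 0, LRPPRC having 0.45.

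Regulators of mitochondrial biogenesis were higher in 6 of 11 measured genes, none being lower, and their median was 0.52; total count scaling made 9 higher. These are 54.5% against 29.5% of all measured genes, and 81.8% against 53.9% by total counts. TFAM packages mitochondrial DNA and takes part in its transcription. It had 149, 123 and 129.9 in the NO donor columns, against 68.6, 70.5 and 69.1 in the control columns. The log2 ratio of TFAM was 0.95 (0.70 to 1.21). ESRRA, a nuclear receptor, had 0.87, TFB2M, a mitochondrial transcription factor, 0.86, PPRC1, a coactivator, 0.77, and POLRMT, the mitochondrial RNA polymerase, 0.75. By the authors' size factors, those whose motifs were searched above had ratios near or under 0. NRF1 was at −0.09 (−0.37 to 0.20), GABPA at −0.34 (−0.54 to −0.14) and YY1 at −0.33 (−0.44 to −0.23), while GABPB1, the partner of GABPA, had 0.52. Under total count scaling all of these were above 0, with NRF1 at 0.51, GABPA at 0.26, YY1 at 0.26 and GABPB1 at 1.12. Of 16 citrate cycle and pyruvate dehydrogenase genes, 2 were higher and 2 lower, 12.5% each against 29.5% and 32% of all measured genes, with a median of −0.00031. OGDH, of the 2-oxoglutarate dehydrogenase complex, had 1.02 and IDH3B 0.79, whereas the succinyl-CoA ligase subunits SUCLG2 and SUCLG1 had −0.77 and −0.54.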

How the data were processed

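A table that the authors deposited, with DESeq2's output columns for NO donor against control, gave all values. Cell Ranger, DESeq2, Seurat 3.0 and the build Sscrofa11.1 are named in the submitters' processing notes, without their roles; cell filters, doublet treatment and the gene annotation are not given in the sources used here. Per the file headers, the table gives normalized counts, a signal that the authors divided by 1 size factor per column, and their mean. Divided by the smallest step of its column, 100% of values came out whole (tolerance 0.01), which gave back the counts. The log2 fold change and its error, the Wald score, the p-value and the adjusted p-value are the authors', per the file headers.

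Counts were summed per library and divided by the summed size factors, with no pseudocount. Intervals are exact binomial (Clopper-Pearson) at 95%. They were tested on simulated Poisson counts only, so that test does not cover spread beyond counting, such as that of the CYCS columns. Genes for which the authors give an adjusted p-value count as measured (13943 of 14804). No count model was fitted, because each group has 1 library; edgeR 4.0.16 gave TMM factors only. Members and lists were chosen with earlier results of these data known. Genes described were the highest and the lowest of each complex and role at a mean of 100 or more, fixed isoforms and catalytic subunits; the other members and neighbouring genes named were chosen after their values were seen. Of the genes this rule names, 1 is not reported here. Symbols were matched to RefSeq Sscrofa11.1 (all 87 members), spans being 1-based; 26 members overlap a gene on the other strand. Alternatives changed scaling, size rule, filter, estimate and columns. Python 3.11.15, scipy 1.17.1 and R 4.3.3 were used.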

Additional observations from a re-analysis of the deposited data

How the results depend on the processing

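Scaling, the size rule and a filter on high levels each moved the counts. Total count scaling made 46 members higher and 6 lower and moved the median log2 ratio to 0.61, and the calls of NDUFB9 and NDUFA1 turned to log2 ratios of 0.00418 and 0.0941; of the 44 members whose call changed, 15 passed from lower to neither and 29 from neither to higher. TMM scaling, which adds 0.02, left 17 higher and 20 lower. A size rule of 1 log2 unit left 5 higher and 9 lower. Among members with a mean of 1000 or more, a filter chosen after seeing the data, 4 were higher, 13 were lower and the median was −0.18. Of the 1049 measured genes at that level 18.8% were higher and 41.5% lower, and their median was −0.31, below that of the members. With the authors' deposited log2 fold change 16 were higher and 21 lower. Leaving out 1 column at a time gave 14 to 17 higher, 20 to 23 lower and medians of −0.01 to 0.03; 12 members close to the rule or low in counts changed their call, the widest move being 1.996 log2 units for SDHAF3. No paired analysis was possible because each group has 1 library. Depth limits SDHAF3, SDHD, UQCC and COX10, each under 100 counts in at least 1 library, and the spread between cultures was not measured.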
